A study of Homo sapiens with 74 samples.

Results

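SALL4 Cut&Run yielded 540 of the 92122 peaks in the 72 lists of 36 zinc-finger proteins (ZFPs). Its first replicate had 335 peaks and its second 205. All peaks of both lists were used. Merging overlapping SALL4 peaks gave 385 regions, of which 145 were found in both replicates and 240 in 1 replicate. Leaving out 3 regions on SALL4 exons and 1 on EEF1A1 left 141 regions found in both replicates, which are described here in most detail.

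The study profiled human ZFPs by Cut&Run, in which an antibody directs micrococcal nuclease to a chromatin protein so that the DNA around it is cut free and sequenced. For SALL4, HEK293T cells, a human embryonic kidney line, were transfected with a plasmid carrying the SALL4 open reading frame with a V5 tag at its C-terminus, driven by the EF1-alpha promoter. The cells were harvested 48 h later without fixation, V5 antibody was used, and peaks were called against a mock IP, the same V5 antibody in un-transfected cells. The other ZFPs were handled in the same way, so every list comes from cells that received a plasmid, compared with cells that did not, and signal from plasmid DNA can enter any list. The SALL4 cells overexpressed a tagged protein in 1 cell line. Endogenous SALL4 was not the target of the antibody. Fold below means signal in the V5 library over the mock IP at the peak summit, as the peak caller gave it, and folds are linear throughout.

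SALL4 is a transcription factor of the spalt family with several clusters of C2H2 zinc fingers, best known from embryonic stem cells, germ cells and limb development. It recruits the NuRD deacetylase complex, and its C-terminal zinc-finger cluster binds short AT-rich words. In mouse embryonic stem cells it is also found at AT-rich pericentromeric heterochromatin. Human pericentromeres are built from alpha satellite and flanked by other tandem repeats, among them satellites made of the ATTCC pentamer and an AT-rich satellite with a 42 bp repeat unit.

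The 145 regions were sorted by the sequence under their summits, with rules set after their values were seen, and the sort is a description. The most frequent kind, with 80 regions, was pentamer satellite, defined by at least 5 ATTCC or GGAAT words in the summit window, which is the summit with 100 bases on either side, a property of 0.143% of windows tiled over hg38. A further 20 regions matched ribosomal DNA (rDNA), 10 were similar to the SALL4 coding sequence, 9 had an AT content of at least 70%, 8 matched the mitochondrial genome and 5 lay inside an alpha-satellite array. The remaining 9 fitted none of these.

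The AT-rich regions are shown first because SALL4 is known to bind AT-rich words. All 9 had a tandem repeat with a period of 42 bp, with 48.2% to 85.0% of bases in the 1 kb around the summit matching the base 42 bp away. The most frequent 12-base word in their windows, ATAAAATATCAA or TTGATATTTTAT on the other strand, occurred 26 times and in all 9 windows, against 0.0219% of hg38 windows of the same length. Since the word was taken from these windows, its presence in them is a description. The summit windows of 4 regions are given below in hg38, read on the strand with the A-rich form of the word, which is in capitals.
Chromosome 22 (chr22:11212937-11213137, plus strand): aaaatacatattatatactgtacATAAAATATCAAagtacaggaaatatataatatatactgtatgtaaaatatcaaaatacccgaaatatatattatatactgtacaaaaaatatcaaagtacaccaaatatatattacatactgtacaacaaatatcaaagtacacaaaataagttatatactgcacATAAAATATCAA
Chromosome 14 (chr14:16093281-16093481, minus strand): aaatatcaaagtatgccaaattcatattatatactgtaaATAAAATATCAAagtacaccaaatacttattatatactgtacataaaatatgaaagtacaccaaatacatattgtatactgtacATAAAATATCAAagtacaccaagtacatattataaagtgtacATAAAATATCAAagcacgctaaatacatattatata
Chromosome 4 (chr4:49710005-49710205, plus strand): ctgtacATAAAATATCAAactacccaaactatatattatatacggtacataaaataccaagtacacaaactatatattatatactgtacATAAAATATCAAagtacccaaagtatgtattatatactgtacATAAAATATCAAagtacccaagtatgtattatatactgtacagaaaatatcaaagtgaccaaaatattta
Unplaced contig (chrUn_KI270333v1:1543-1743, plus strand): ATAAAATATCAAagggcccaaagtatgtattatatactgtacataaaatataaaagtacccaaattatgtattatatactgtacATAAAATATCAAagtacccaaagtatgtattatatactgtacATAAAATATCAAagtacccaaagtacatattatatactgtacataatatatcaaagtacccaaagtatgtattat

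Pentamer satellite is shown by 2 summits with 50 bases on either side, on chromosomes 4 and 10, with the pentamers in capitals. The first reads as a run of ATTCC and the second as GGAAT, the same repeat on the other strand.
Chromosome 4 (chr4:49147382-49147482, plus strand): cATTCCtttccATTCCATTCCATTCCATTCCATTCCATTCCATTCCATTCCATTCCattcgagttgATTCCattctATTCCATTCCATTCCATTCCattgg
Chromosome 10 (chr10:41905894-41905994, plus strand): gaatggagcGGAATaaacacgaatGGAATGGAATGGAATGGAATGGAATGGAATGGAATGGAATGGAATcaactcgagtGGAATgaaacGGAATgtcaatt

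The regions similar to SALL4 are shown by the stretch of highest fold, on the processed pseudogene SALL4P6, beside the SALL4 coding sequence it aligned to. Bases that differ are in capitals in both, and the stretch differed at 8 of 79 positions. The matching SALL4 bases are not contiguous in the genome: 25 lie at chr20:51788861-51788885 and the next 54 at chr20:51784631-51784684 (minus strand), so the pseudogene stretch runs across an exon-exon junction.
SALL4P6 (chr3:42322266-42322344, plus strand): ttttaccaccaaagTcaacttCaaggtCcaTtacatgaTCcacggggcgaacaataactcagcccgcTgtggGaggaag
SALL4 coding sequence: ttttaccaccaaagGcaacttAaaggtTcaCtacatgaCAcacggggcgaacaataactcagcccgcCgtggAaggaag

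The highest folds in both lists were on SALL4 itself. SALL4 lies on chromosome 20 (minus strand, hg38), and its canonical transcript in GENCODE has 4 coding segments, 3159 bases in all. The peak over the second segment, chr20:51790020-51792378, had a fold of 4488 in replicate 1 and 2050 in replicate 2. Folds at the last segment, chr20:51784267-51784711, were 1859 and 1211, and at the third, chr20:51788859-51789171, 1503 and 812. The first segment, chr20:51802276-51802455, had a fold of 363 in replicate 1 and was not called in replicate 2. Each called peak covered 100% of its coding segment and ended close to its boundaries, and a plasmid with the open reading frame carries coding bases without introns. Which SALL4 isoform it carried was not settled from the sources used here. Reads from the plasmid and from the chromosomal gene cannot be told apart in these lists. EEF1A1, whose promoter drives the plasmid, had folds of 2236 and 1786 and was called in all 35 other ZFPs.

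Coding exons of other ZFPs were called in the SALL4 lists too. A LIN28B exon, chr6:105078430-105078759, had folds of 9.63 and 12.4 in the SALL4 lists, against up to 3561 and 2569 at LIN28B coding exons in the LIN28B lists. CNBP and ZFP36L1 were also called at this LIN28B exon, each in both replicates. A ZFP36L1 exon, chr14:68789730-68790319, had folds of 4.97 and 6.77, against up to 2072 and 2785 in the ZFP36L1 lists. CISD1 was also called at this exon, in both of its replicates. In the other direction, SALL4 coding exons were called in both replicates of CNBP, LIN28B and ZFP36L1, with highest folds of 10.0 and 6.97, 5.90 and 5.59, and 13.2 and 7.93. Of the 35 other ZFP genes, no further one had a coding exon called in a SALL4 list. The source of these calls at coding exons of other ZFPs was not tested, the CISD1 call included. Plasmid and chromosomal reads cannot be told apart there either. The AT and pericentromeric comparisons are also given without CNBP, LIN28B and ZFP36L1.

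After SALL4 and EEF1A1, the highest folds were on SALL4-like sequence, defined as a peak with at least 200 bases aligned to the SALL4 coding sequence. The 10 such regions found in both replicates lay on 7 loci annotated as pseudogenes, SALL4P5 as unprocessed and the rest as processed, and aligned over 255 to 1088 bases with 68.2% to 87.6% identity. The longest alignment of any other peak outside SALL4 was 82 bases. SALL4P6 on chromosome 3 had the highest folds, 849 and 674 (chr3:42322016-42322710), and the highest identity. A pseudogene without a symbol on chromosome 16, ENSG00000277211, followed with 308 and 226 (chr16:20157482-20158483), then ENSG00000258705 on chromosome 14 with 319 and 206 (chr14:22013899-22014940), and SALL4P1 on chromosome 5 with 303 and 199 (chr5:57422461-57423283). These 4 regions stood well apart from the rest of the genome outside SALL4 and EEF1A1, where the next region, at ENSG00000277211 again, had 82.8 and 36.2 (chr16:20155367-20155778).

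The remaining SALL4-like regions had lower folds. SALL4P7 (chr14:60494089-60494611) had 37.2 and 16.9, SALL4P2 (chrX:129877076-129877506) 29.9 and 18.4, and SALL4P5 26.9 and 15.4 at chr3:22989822-22990134 and 9.62 and 11.8 at chr3:22991126-22991374. A second part of SALL4P6 (chr3:42321028-42321696) had 24.2 and 15.02. Replicate 1 was the higher in 9 of the 10, as it was at all 3 SALL4 exon regions, and the order of the folds was the same in both replicates apart from near neighbours. No other ZFP had a peak in any of the 10.

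Placed on the coding sequence, the summits of these regions fell in a few stretches. All 10 alignments spanned at least 1 of the 3 exon-exon junctions, and 13 of the 20 summits lay within 50 bases of a junction. The 20 summits are those of both replicates at the same 10 regions, so they are not separate observations. Bases that close to a junction are 9.50% of the coding bases, but a summit was placed only within its region's aligned stretch. The share within the aligned stretches was not computed, so clustering of summits at junctions was not tested. Summits at SALL4P6 were 14 and 18 bases from the last junction, and those at ENSG00000277211 were 28 and 27. None of the 10 alignments covered the bases between 891 and 2051 of the coding sequence, in the second segment, which holds 2331 bases. No summit of the 10 fell between coding bases 182 and 2506. SALL4P1 also had a second peak there, in replicate 1 alone, with a fold of 5.39. Chromosomal binding at the pseudogenes and reads of the spliced coding sequence on the plasmid cannot be told apart from peak lists.

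**Figure D1:**
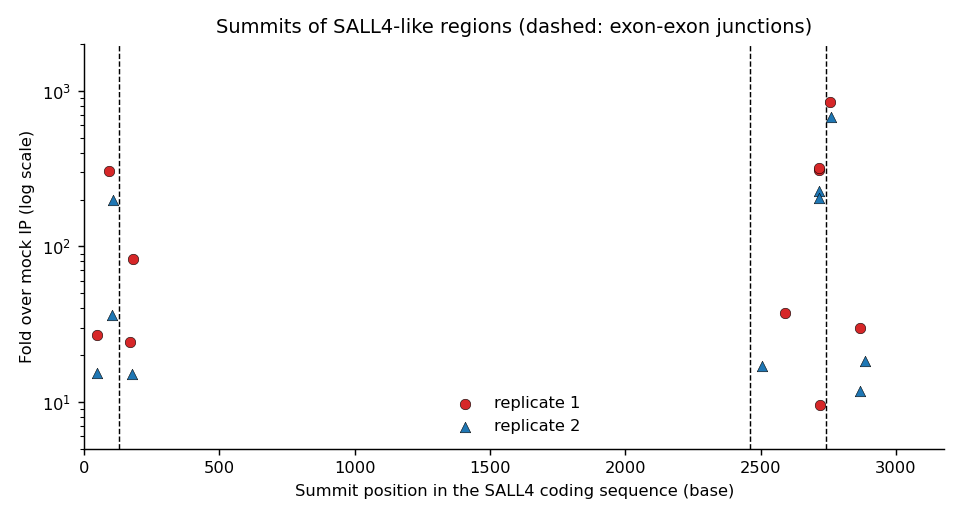
Position of the summit in the SALL4 coding sequence (x axis, bases) against fold over mock IP (y axis, log scale) for the 10 SALL4-like regions found in both replicates; circles are replicate 1, triangles replicate 2, and dashed lines mark the 3 exon-exon junctions. The highest folds, 849 and 674, lie beside the last junction, and no summit lies between bases 182 and 2506.

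Away from these genes folds were low. Pentamer-satellite regions had a median fold of 2.88 in replicate 1 and 2.60 in replicate 2, with highest values of 8.22 and 6.61. AT-rich regions had medians of 4.41 and 4.10, mitochondrial regions 5.29 and 5.76, and alpha-array regions 4.34 and 5.32. Across the 131 regions that were not SALL4, EEF1A1 or SALL4-like, log2 folds of the replicates correlated with Pearson r = 0.51, as a description over regions that share the same 2 libraries. Of the 205 peaks in the shorter list, 153 overlapped a peak of the longer (74.6%, Wilson 95% interval 68.3% to 80.1%, which covers counting error only), the second highest overlap of the 30 compared ZFPs. Without SALL4 exons, EEF1A1 and pentamer satellite the overlap was 56.4%.

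**Figure D2:**
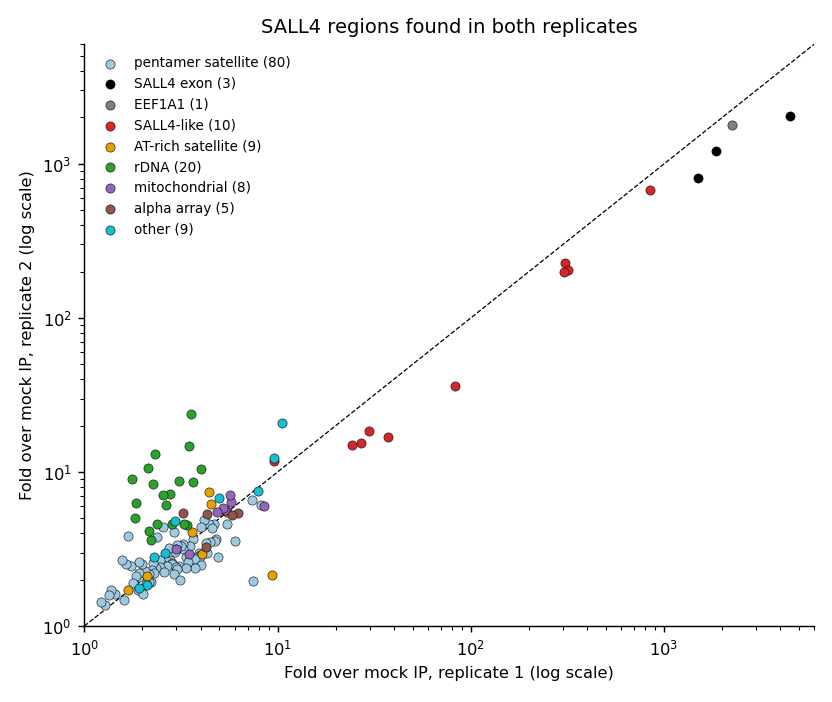
Fold over mock IP in replicate 1 (x axis) and replicate 2 (y axis), both on log scales, for the 145 SALL4 regions found in both replicates, coloured by the sequence under the summit, with the number of regions in brackets; the dashed line marks equal folds. SALL4 exons, EEF1A1 and SALL4-like regions reach the highest folds, and all 20 rDNA regions lie above the line.

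The AT-rich regions had folds of a few units in both replicates. The chromosome 22 region (chr22:11212620-11213427) had 4.41 and 7.43, and chromosome 14 (chr14:16093114-16093671) 3.60 and 4.10. Chromosome 4 (chr4:49709426-49711885) had 9.33 and 2.16, the largest gap between the replicates in this set. Chromosome 3 (chr3:93470448-93470757) had 1.68 and 1.71. The other 5 lay on unplaced contigs. KI270337v1 had folds of 5.46 and 5.49, KI270467v1 5.34 and 5.69, and KI270333v1 4.52 and 6.21. KI270336v1 had 4.06 and 2.95, and KI270466v1 was the lowest of these contigs, at 2.11 in both replicates. A further 2 AT-rich regions were called in replicate 2 alone, with folds of 4.59 and 5.01.

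By AT content, the 5 highest windows were the KI270467v1 contig (81.6%), chromosome 22 (80.1%), chromosome 3 (79.1%), chromosome 14 (78.1%) and the KI270466v1 contig (77.6%). Windows of at least 70% AT make up 11.2% of hg38. In the SALL4 lists they were 9 of 149 peaks outside SALL4, EEF1A1 and pentamer satellite in replicate 1 (6.04%) and 12 of 110 in replicate 2 (10.9%).

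Other ZFPs were called at the AT-rich regions to different extents. ZNF317 had a peak in at least 1 list at all 9 regions and in both lists at 3, and ZFP36L1 at 8 regions and in both lists at 7. ZMAT5 was called at 7, never in both lists, and CNBP, LIN28B and ZNF800 each at 5. The number of other ZFPs called was 27 at KI270467v1 and 21 at chromosome 4, from 7 to 11 at KI270333v1, KI270337v1 and KI270336v1, 5 at chromosome 3 and 3 at KI270466v1. At the chromosome 22 region ZFP36L1 had folds of 5.22 and 4.39, and ZNF317 had 4.20 in replicate 1 alone. At the chromosome 14 region ZNF317, with 4.77 in replicate 1, was the single other ZFP called. The shared 12-base word stood in 3.89% of SALL4 windows (21 of 540), 3.82% of ZNF317 windows (16 of 419) and 2.89% of ZFP36L1 windows (23 of 795). The word was taken from SALL4 windows that are counted here, so the order of these shares does not rank the ZFPs.

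Averaged over a list, SALL4 summits were not AT-rich. The mean AT content of summit windows, with SALL4 exons, EEF1A1 and pentamer satellite left out, was 49.7% in replicate 1 (149 peaks) and 48.1% in replicate 2 (110 peaks), 48.9% ± 1.17 (SD, n = 2 lists), below the 59.1% of the main chromosomes. The other 29 compared ZFPs averaged 40.9% ± 6.44 (SD over ZFPs), from 32.5% for G2E3 to 55.2% for ZNF317, and CNBP, RBM5, ZFP36L1 and ZNF317 were above SALL4. SALL4 was 7.98 percentage points above the others (exact permutation over 30 ZFPs, two-sided, p = 0.200, adjusted p = 0.400), a difference within their spread. Without LIN28B, ZFP36L1 and CNBP it was 9.17 points (exact permutation p = 0.111). The compared ZFPs are the 30 that the study lists with a Cut&Run target number, and no p under 0.0333 is possible with 30.

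AT content differed between sequence classes. The classes were defined by the sequence of these same peaks, so their separation follows in part from the definitions. Region windows ran from 73.6% to 81.6% in the AT-rich class, which was chosen on that value, from 55.7% to 67.2% in pentamer satellite, and from 25.9% to 49.8% in rDNA. SALL4-like windows ran from 37.3% to 57.2%. Peaks within 1 kb of a sequence end or of unknown bases had no profile around the summit, which left 12 of the 21 AT-rich peaks and 114 of the 115 of no class. The AT-rich peaks had 78.8% within 100 bp of the summit and 76.6% beyond 500 bp. AT was lower at the summit than beyond 500 bp in the peaks of no class, 47.5% against 52.7%, and in SALL4-like peaks, 48.6% against 53.2%. In rDNA peaks AT was higher at the summit, 37.1% against 28.7%. Pentamer satellite had 60.1% against 60.3%.

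**Figure D3:**
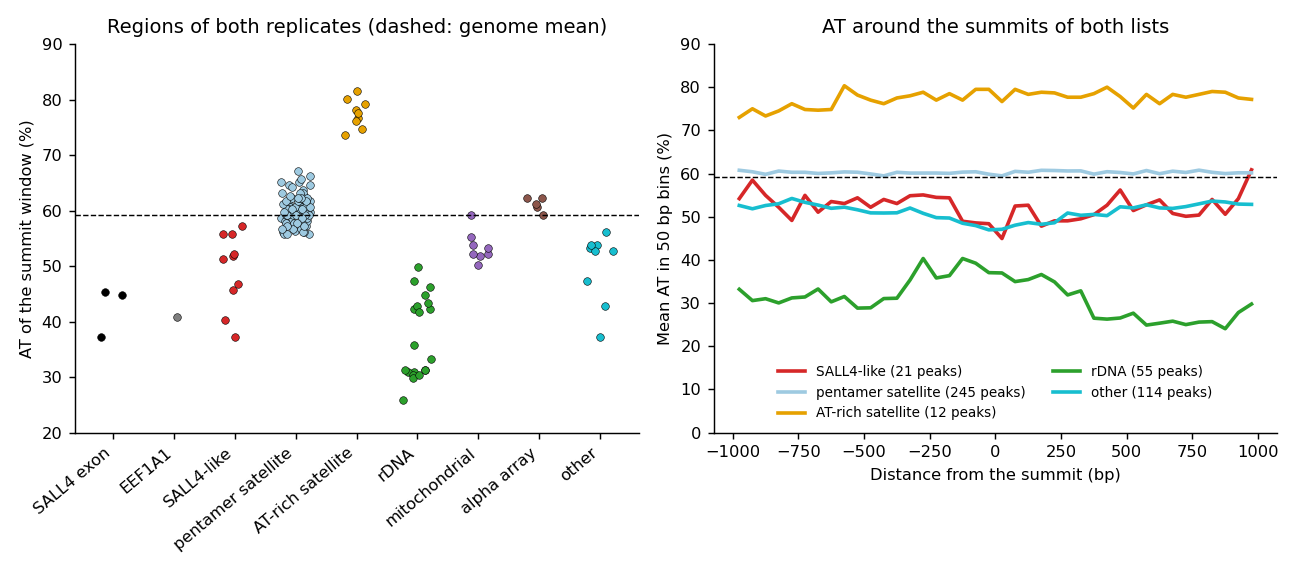
Left, AT content (%) of the summit window of each of the 145 regions, by class; right, mean AT content (%) in 50 bp bins against distance from the summit (bp) over the peaks of both lists with 1 kb of known sequence on either side (12 of 21 AT-rich peaks), for 5 classes; dashed lines mark the mean of the main chromosomes, 59.1%. AT-rich satellite lies above 73%, rDNA below 50%.

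Windows with the words ATATTG or AATATT on either strand (the words overlap in AATATTG) were 7.38% of peaks in replicate 1 and 10.0% in replicate 2, 8.69% ± 1.85 (SD, n = 2 lists), against 20.7% of windows tiled over the main chromosomes. The other compared ZFPs averaged 2.99% ± 2.32 (SD), and ZNF317 at 11.01% was the one among them above SALL4. Outside the comparison, ZMAT5 (16.46%) and TRIM55 (13.88%) were also above SALL4. The difference of 5.70 percentage points did not pass the test (exact permutation over 30 ZFPs, two-sided, p = 0.0667, adjusted p = 0.200). Among the regions found in both replicates, the words were in 5 of 9 AT-rich, 3 of 8 mitochondrial and 2 of 10 SALL4-like regions, and in none of the 80 pentamer-satellite or 20 rDNA regions.

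Near the centromeres SALL4 had many regions. An alpha-satellite array was placed on each chromosome except Y by the density of CENP-B boxes, and peaks within 5 Mb of it are called pericentromeric. Such peaks were 44.6% of replicate 1 and 48.8% of replicate 2, 46.7% ± 2.98 (SD, n = 2 lists), while 9.52% of the main chromosomes lies that close. The other ZFPs averaged 28.9% ± 15.2 (SD), and CNBP, ZFP36L1 and ZNF317 were above SALL4. The difference of 17.8 percentage points was within the spread of the ZFPs (exact permutation, 30 ZFPs, two-sided, p = 0.333, adjusted p = 0.440). Without LIN28B, ZFP36L1 and CNBP it was 20.3 points (exact permutation p = 0.185).

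Of the 141 regions found in both replicates, 69 were pericentromeric, 12 of them inside the array, and 24 lay on unplaced or unlocalized contigs, which have no array. By class, 48 of the 69 were pentamer satellite, 10 rDNA, 5 alpha array, 4 AT-rich, 1 SALL4-like and 1 of no class. Chromosome 4 had the most pericentromeric regions (21), followed by 21 (10), 10 (9), 2 and 17 (6 each) and 5 (5). The 10 on chromosome 21 were the rDNA regions. The densest stretch was chr4:49093585-49149798, with 17 pentamer-satellite regions in 56.2 kb, folds up to 4.29 and 4.39, and 24 to 35 other ZFPs called in each. Another 9 lay at chr10:41859269-42092372, with folds up to 7.35 and 6.61, and 6 at chr2:89820072-89840555, with folds up to 8.22 and 6.12. On chromosome 5, 5 pentamer-satellite regions lay at chr5:49601224-49667065 inside the array, with folds up to 2.29 and 2.21 and 33 to 35 other ZFPs. On chromosome 20, 4 lay at chr20:31052224-31187380, with folds up to 5.51 and 4.62. The 5 regions inside an array that fitted no other class were at chr17:24150915-24151672 (folds 6.23 and 5.399), chr17:26140536-26141357 (5.78 and 5.23), chr17:24188132-24188809 (4.24 and 3.26), chr1:123422782-123423140 (4.34 and 5.32) and chr1:122612534-122613399 (3.25 and 5.44). The last of these had 6 other ZFPs called, ZNF317, CNBP, LIN28B and ZFP36L1 among them, and the rest had 11 to 31. A stretch of 19 pentamer-satellite regions at chr1:143184659-143267558 lies on the long-arm heterochromatin, more than 5 Mb from the array, and was therefore not counted. With a limit of 20 Mb, set after the values were seen, the share was 60.6%.

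Pentamer-satellite peaks were 54.9% of replicate 1 and 45.3% of replicate 2, 50.1% ± 6.77 (SD, n = 2 lists), against 28.6% ± 18.95 (SD) in the other ZFPs, with RBM5, ZNF317 and ZNF800 above SALL4. The difference of 21.5 points was within the spread of the ZFPs (exact permutation, 30 ZFPs, two-sided, p = 0.367, adjusted p = 0.440). The pentamer class also made up most of the regions that replicate 1 had alone, and 4 of those that replicate 2 had alone.

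rDNA went the other way. All 20 rDNA regions found in both replicates had a higher fold in replicate 2, with a median of 7.15 against 2.61, and 20 more rDNA regions were called in replicate 2 alone and none in replicate 1 alone. The highest was a fragment in an intron of HFM1, chr1:91387263-91387555, with 3.56 and 23.8. On chromosome 21, 9 regions lay at chr21:8209850-8438725, with median folds of 2.77 and 7.21. Between 19 and 30 other ZFPs were called at these regions. The 20 regions match parts of the same rDNA sequence in the same 2 libraries, so they are not separate observations. Which difference between the 2 libraries moved rDNA was not tested.

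**Figure D4:**
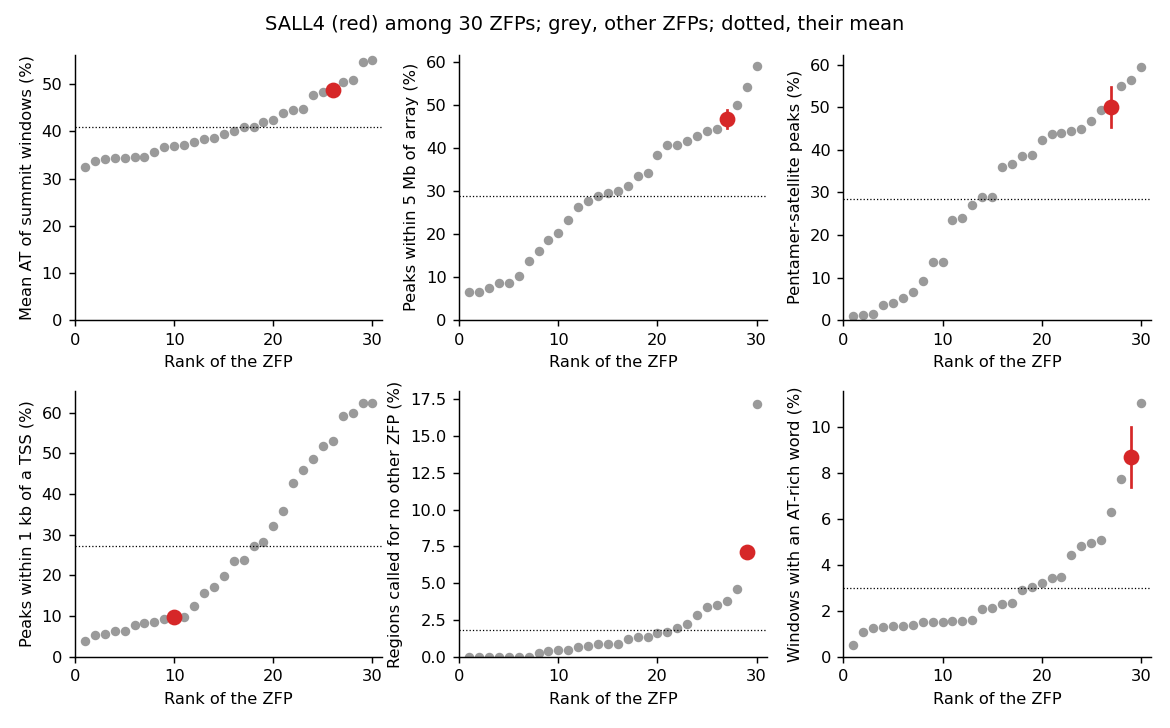
The 6 measures compared between ZFPs, each in percent (y axes from 0), with 30 ZFPs in rank order (x axes); SALL4 is red with a line joining its 2 lists, other ZFPs are grey and the dotted line is their mean. SALL4 is second highest in regions called for no other ZFP (7.09%) and in windows with an AT-rich word (8.69%), and below the mean within 1 kb of a TSS (9.67%).

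Few SALL4 peaks lay at promoters. Peaks within 1 kb of a transcription start site (TSS) of any gene were 9.39% of replicate 1 and 9.95% of replicate 2, 9.67% ± 0.393 (SD, n = 2 lists), against 27.3% ± 20.4 (SD) in the other ZFPs. The difference of -17.6 points was within their spread (exact permutation, 30 ZFPs, two-sided, p = 0.600, adjusted p = 0.600). In replicate 1 these were 5 rDNA, 6 mitochondrial and 4 SALL4-like peaks and 16 of no class, and in replicate 2 they were 7, 7, 4 and 2. Protein-coding start sites, those of the mitochondrial genome included, accounted for 6 peaks of replicate 1 and 3 of replicate 2.

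On nuclear chromosomes, a single region found in both replicates lay within 1 kb of a protein-coding TSS, 352 bp from GSTA4, a glutathione S-transferase. It also lay 35 bp from the start of RN7SK, the small nuclear RNA that holds P-TEFb inactive (chr6:52995656-52995971, folds 10.5 and 20.95, 24 other ZFPs). The mitochondrial genome was called from end to end, MT-ND1 included, with folds of 5.67 and 7.08. In replicate 1 alone, peaks lay on RN7SL1 (10.6) and RN7SL2 (5.08), which make the RNA of the signal recognition particle, at RPPH1, the RNA of RNase P (4.82), and on the U1 RNA genes or copies RNU1-28P (10.1), RNVU1-18 (9.62) and RNU1-4 (6.12). Between 14 and 27 other ZFPs were called at each. These small RNA genes were chosen after their values were seen.

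Other regions found in both replicates were few. A TMEM242 intron had 2.61 and 2.96 (chr6:157312962-157313472, 26 other ZFPs). Regions 1604 bp from the mitochondrial pseudogene MTCYBP13 on chromosome 17 had 7.92 and 7.58 with 18 other ZFPs, and 910 bp from MIR4485 on chromosome 11 had 8.47 and 6.05 with 26. Of the last 4 of no class, 3 lay on contigs without annotation and 1 was intergenic, with folds from 1.92 to 2.95 and from 1.78 to 4.84 and 20 to 29 other ZFPs called. A run of 5 regions at chr1:629135-634889, over copies of mitochondrial genes such as MTCO1P12, had folds from 3.47 to 5.76 in replicate 1 and from 2.95 to 6.39 in replicate 2.

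Over all peaks of either replicate, 246 of 19970 protein-coding genes (1.23%) had a SALL4 peak within 100 kb of their TSS, leaving out SALL4 exons and EEF1A1. Among 26 pluripotency genes and genes reported as SALL4 targets, including POU5F1 and NANOG, the count was 0, and it was 0 of 13 for NuRD subunits and 0 of 4 for SALL1 to SALL4. For SALL4 itself this follows from leaving out the peaks on its own exons. The nearest peaks to a member lay 141814 bp from the TSS of LIN28B, on the exon described above, 291886 bp from GATAD2A and 476683 bp from SALL2. With so low a share among all genes, counts of 0 in lists of this size do not set them apart.

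Regions called for no other ZFP were 10 of the 141 (7.09%), against 340 of 10806 such regions of the other 29 compared ZFPs (3.15%) and a mean of 1.80% ± 3.23 (SD) over those ZFPs. SALL4 was second to CTCF, at 17.2%, and the difference of 5.29 points did not pass the test (exact permutation, 30 ZFPs, two-sided, p = 0.0667, adjusted p = 0.200). All 10 were the SALL4-like regions. Without them, 0 of 131 regions were called for SALL4 alone, and the difference turned to -1.80 points (exact permutation p = 0.400), with the other ZFPs left as they were. Many of the 131 are neighbouring copies of the same repeats in the same libraries, so the count of 0 gives no bound on the share. Where another ZFP had to be called in both its replicates, the SALL4 share was 9.22% and lay 2.25 points below the others (exact permutation p = 0.900), so the direction rests on these rules. Of the 131, the fewest other ZFPs were called at the AT-rich satellite of chromosome 14 (1), followed by the AT-rich satellite of chromosome 22 and the ZFP36L1 exon (2 each).

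**Figure D5:**
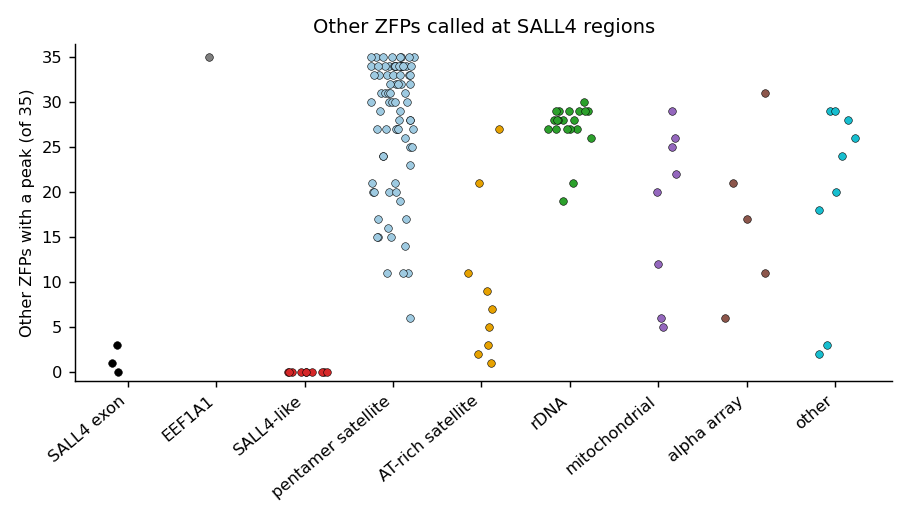
Number of the 35 other ZFPs with a peak overlapping each of the 145 SALL4 regions found in both replicates (y axis), by class of the sequence under the summit (x axis); each point is a region. All 10 SALL4-like regions are at 0, pentamer satellite has a median of 30.5, and AT-rich satellite a median of 7.

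Among regions called in 1 replicate alone, 96 fitted no sequence class. Replicate 1 held 74 of them and replicate 2 the other 22, and for 40 no other ZFP was called. That share was not computed for regions that other ZFPs had in 1 replicate alone. The count of 40 therefore does not mark these regions as particular to SALL4. Their folds ran from 1.99 to 10.6 and their AT content had a median of 48.3%. They included peaks 2954 bp from HAND1, a transcription factor of heart development (fold 4.49), and 4523 bp from ISL1, a homeodomain factor of motor neurons and heart (fold 5.39), both picked for naming after their values were seen. Peaks lay over or near the start sites of EOGT (fold 4.82), AUP1 (5.20) and TBPL1 (4.49). None of these was called in the other replicate.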

How the data were processed

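Peak lists were deposited for each replicate. According to the study's methods, the authors trimmed reads (Trimmomatic 0.36), aligned them to hg38 (Bowtie2 2.3.5.1), removed duplicates (Picard 0.1.8) and called peaks with MACS2 2.2.7.1 at a false discovery rate of 0.05 against V5 mock IP of the same batch. The deposited files give a score, a fold ratio over mock IP and -log10 of p and q-values for each peak, and no counts, so depth is unknown and folds are not comparable between lists as rates. Mock IP has no list analysed here, and batches are not given. Members and lists were chosen with earlier results of these data known.

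Summit windows were 100 bases on either side of the summit in hg38, and genes came from GENCODE 44, read with pysam 0.24.0. SALL4-like peaks had at least 200 bases and 65% identity in a local alignment (Biopython 1.88), rDNA and mitochondrial peaks at least 50% of 21-mers shared with 10 kb around RNA5-8SN1 or with the mitochondrial genome. Arrays were joined from 100 kb bins with at least 20 CENP-B boxes. Regions shared at least 1 bp. A ZFP's value was the mean of its 2 lists, and 6 measures were tested by exact permutation over ZFPs with Benjamini-Hochberg adjustment, in code tested on simulated data. Alternatives with all 36 ZFPs, other windows, distances, q thresholds and replicates left out are reported in the closing section. Named regions were the highest by the lower fold of both replicates, those nearest protein-coding start sites, those called for no other ZFP, the most AT-rich, and members of 3 gene lists near a peak. According to the study's methods, each replicate was a separate well of transfected cells.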

Additional observations from a re-analysis of the deposited data

How the results depend on the processing

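Of 60 alternatives of the 6 tested measures, 58 kept the direction, and the adjusted exact permutation p stayed above 0.05. The share of regions called for no other ZFP turned to 9.22%, 2.25 points below the others, where another ZFP needed both replicates, and to 0 with SALL4-like regions left out, an alternative chosen after seeing the data. Without 1 replicate the AT-rich word share ran from 7.38% to 10.0%, and the lowest adjusted p of any alternative was 0.0746, for that share with the lists as the unit. Replicate overlap, 74.6%, moved to 55.6% with summits within 200 bp and to 56.4% without SALL4 exons, EEF1A1 and pentamer satellite. No paired analysis was possible because each list holds its own peaks without counts on common regions. Depth behind each list is unknown, so a region missing from a list is not shown to be absent. The methods do not say whether reads matching several copies of a satellite, of rDNA or of a pseudogene were filtered.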
